A study of Mus musculus with 8 samples.

Results

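The loci of 7 Krüppel-like factor genes, Klf1, Klf2, Klf3, Klf4, Klf6, Klf10 and Klf13, were examined in peak lists of open chromatin from mouse bone marrow progenitors. Each locus was the RefSeq gene body extended by 20 kb on each side on mm10, so that the members were 7 of 21887 protein-coding loci. Together they held 87 of 207739 regions obtained by merging the F-Seq peaks of all libraries. The study applied ATAC-seq, in which a transposase cuts open DNA and inserts sequencing adapters, to common myeloid progenitors of wild-type C57BL/6 mice, with no treatment. All cells were KIT+ and CD16/32-. Population C2 was CD34bright, CD41+ and CD9+, and the other 3 populations were CD34dim. Of these, C10 was CD41+, CD9+ and CD48bright, C18 was CD41+, CD9+ and CD48dim, and C13 was CD41- and CD9-. Each population had 2 libraries, called R1 and R2 here, from 40000 to 50000 cells. The labels do not say whether both came from separate animals, so that every p-value measures only the spread between libraries, which may be technical. The series text names clusters that differ in part from the sample titles, and the titles with the sorted phenotype were followed.

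Krüppel-like factors are zinc finger proteins that bind CACCC and related GC-rich motifs in promoters and enhancers, where they activate or repress transcription. Klf1 is the red cell member and drives globin, heme and membrane genes, with an upstream enhancer and a proximal promoter that carry GATA and CACCC motifs. Klf3 is a repressor that Klf1 activates in red cells. Klf2 keeps lymphocytes and endothelium quiescent, Klf4 acts in monocytes and in pluripotency, and Klf6, Klf10 and Klf13 are widely expressed.

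Each library had a list from the peak caller F-Seq, of 100000 peaks, and one from HOMER, of 72379 to 260118 peaks. The C18 libraries stood apart. Their HOMER lists held 72379 and 83548 peaks against at least 171712 in every other library, their F-Seq peaks had median widths of 491 and 618 bases against 691 to 800, and HOMER listed only 42.4% and 42.0% of their F-Seq peaks against 71.1% or more elsewhere. Read counts are not part of the lists, and the depth is unknown. A missing peak means that the site did not reach the end of that library's list, not that it was closed. All 5 sort markers (Kit, Cd34, Itga2b, Cd9 and Cd48) had peaks in every library.

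The promoter sequences of 6 members were matched in RefSeq (GRCm38.p6), and that of Klf10 was not. The 250 bases upstream of the start are shown for Klf1, whose promoter peaks differed between libraries, for Klf3, which had the most CACCC boxes, and for Klf2, whose promoter was under a peak in every library. They lie at chr8:84901732-84901981 on the plus strand for Klf1, chr5:64803271-64803520 on the plus strand for Klf3 and chr8:72318812-72319061 on the plus strand for Klf2. Capitals mark CACCC boxes (CACCC), GC boxes (GGGCGG) and GATA motifs (GATA with A or T before it and A or G after it) on either strand, and adjacent or overlapping matches run together.
Klf1: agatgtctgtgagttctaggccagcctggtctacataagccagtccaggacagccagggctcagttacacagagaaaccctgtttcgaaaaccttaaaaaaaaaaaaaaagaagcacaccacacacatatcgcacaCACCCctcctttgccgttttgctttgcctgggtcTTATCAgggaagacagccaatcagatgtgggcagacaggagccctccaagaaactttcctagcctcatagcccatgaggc
Klf3: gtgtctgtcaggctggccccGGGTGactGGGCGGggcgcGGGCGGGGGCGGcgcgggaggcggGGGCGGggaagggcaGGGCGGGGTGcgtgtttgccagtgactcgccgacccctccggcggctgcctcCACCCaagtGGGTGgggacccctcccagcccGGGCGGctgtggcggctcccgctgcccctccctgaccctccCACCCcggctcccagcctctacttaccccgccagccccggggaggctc
Klf2: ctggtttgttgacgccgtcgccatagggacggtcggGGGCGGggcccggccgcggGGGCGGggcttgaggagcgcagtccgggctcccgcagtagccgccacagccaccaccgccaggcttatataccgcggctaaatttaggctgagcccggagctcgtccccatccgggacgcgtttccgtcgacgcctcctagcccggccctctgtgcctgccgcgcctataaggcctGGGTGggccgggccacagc

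The Klf1 window had 1 CACCC box at -114 and 1 GATA motif at -80 from the start, no GC box, and a GC content of 49.2%. The other 5 windows had GC contents of 64.8% to 78.4% and 1 to 6 GC boxes each, while the median of 21263 coding promoters was 55.6%. Klf1 was the 1 member of 6 with a GATA motif, which 23.6% of coding promoters of this length hold. The Klf3 window held 5 CACCC boxes and 6 GC boxes, with 1 pair that shares bases. CACCC boxes stood in 4 of 6 members, against 54.2% of coding promoters, and GC boxes in 5 of 6 members, against 42.6%. A match of letters describes the sequence and does not show that a factor is bound.

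Klf1 was the member with no F-Seq peak over its start site in C13. The start lay under an F-Seq peak in both C2 libraries, in C10 R2 and in both C18 libraries, and under none in C10 R1, C13 R1 and C13 R2. HOMER listed a peak within 500 bases of the start in C2 R1, C10 R2, C18 R1 and C18 R2 and in none of the C13 libraries. The other 5 members with a known start had it under an F-Seq peak, with a HOMER peak within 500 bases, in all 8 libraries, as had 49.4% of 17492 coding starts for the F-Seq peak. For comparison, 439 of the 17492 starts (2.51%) were under an F-Seq peak in at least 1 library and had no C13 peak by either caller.

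In front of the Klf1 start, a site with summits at -728 to -633 was under F-Seq peaks in all 6 libraries of C2, C10 and C18 and had no peak of either caller in C13. Its window is chr8:84901154-84901449, outside the gene body. In C2 and C10 it had a peak with its own summit, whose signal ranked at percentiles 40.7 and 33.4 of the list in C2 and 23.6 and 53.6 in C10. These were middle to low ranks. In C18 the window lay inside peaks with their summit elsewhere, at -111 in R1 and at 1211 in R2. HOMER listed the site in both C10 libraries and in C18 R2. The C18 R1 summit at -111 fell within the CACCC box that begins at -114 in the sequence above. A second Klf1 site, with summits at 1205 to 1252 inside the gene body, had peaks of both callers in all 8 libraries, at percentiles 72.0 to 92.0. The C13 peaks at this inner site, at percentiles 75.2 and 81.0, began 475 and 520 bases after the start.

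**Figure D1:**
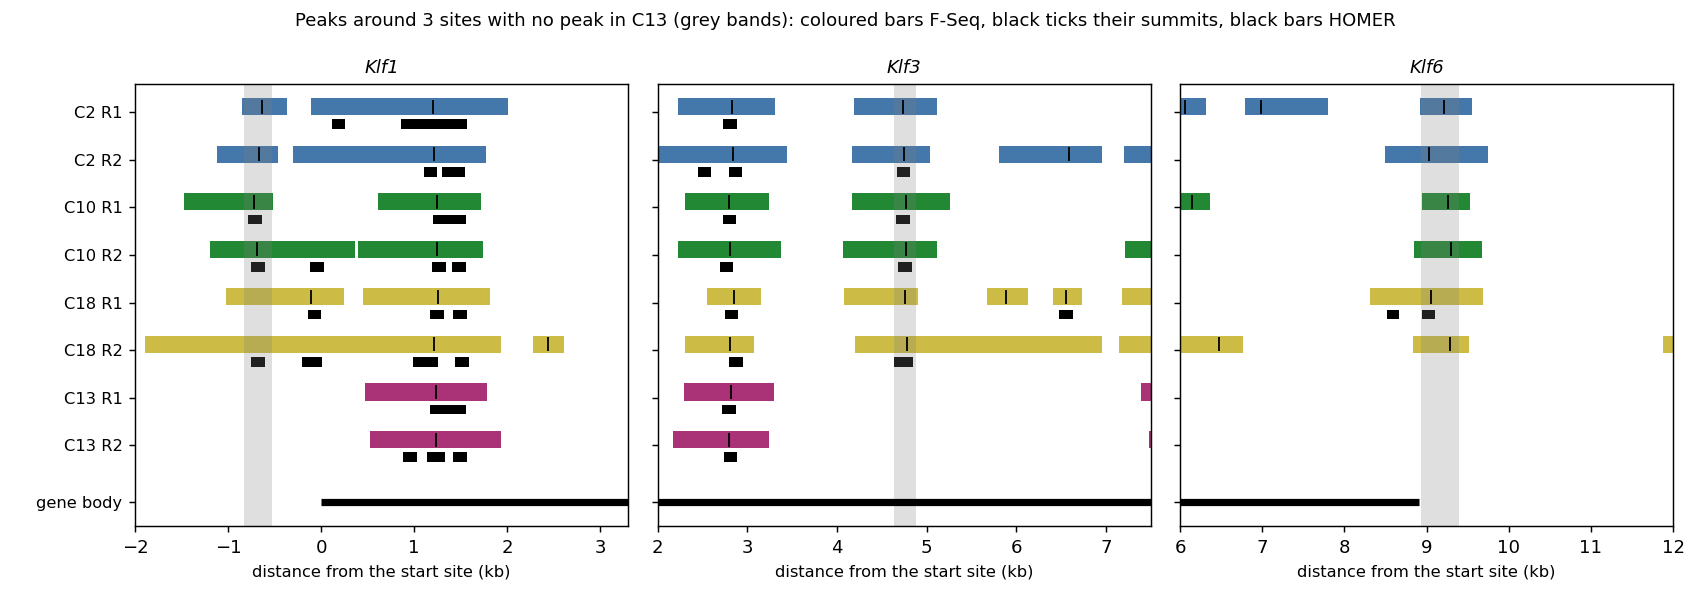
Peaks by library around 3 sites at Klf1, Klf3 and Klf6, with distance from the start site in kb on the horizontal axis and libraries on the vertical axis. Coloured bars are F-Seq peaks with summits as black ticks, small black bars are HOMER peaks, and the grey bands, which mark the sites, hold no peak in either C13 library.

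The bases under F-Seq peaks near the Klf1 gene include the peaks just described, so they are not separate evidence. Values are kb under peaks, scaled so that all libraries have the same total length under peaks. Over the gene body with 2 kb on each side, Klf1 had 2.61 and 3.02 kb in C2, 1.19 and 1.25 kb in C13, 3.75 and 4.70 kb in C18 and 1.95 and 2.60 kb in C10. Both C13 libraries were below all others. In the limma fit over 17526 loci of this size, C13 was lower than the mean of C10 and C18 by -1.21 on the log2(value + 200 bases) scale (SE 0.177, adjusted p = 0.017), where 3.49% of loci were lower. Without scaling the difference was -0.97 (adjusted p = 0.055), and without the C18 libraries it was -0.80 (adjusted p = 0.0789). C10 was lower than C18 by -0.84 (SE 0.205, adjusted p = 0.0389), where 10.3% of loci were lower, and by -0.41 (adjusted p = 0.341) without scaling.

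Over the whole Klf1 locus of 43.3 kb, which also holds all or part of the coding genes Syce2, Gcdh, Dnase2a and Mast1, the values were 6.34 and 9.14 kb in C2, 5.18 and 5.15 kb in C13, 8.16 and 11.5 kb in C18 and 6.12 and 6.29 kb in C10. C13 was again the lowest population with no overlap. The difference from the mean of C10 and C18 was -0.57 (SE 0.189, 95% interval -1.01 to -0.13) and did not pass the limma test (adjusted p = 0.103). The sites at -8137 to -8097, 6593 to 6688 and 11050 to 11251 from the start had peaks of both callers in all 8 libraries, as had the inner site. None of these 3 lies in the Klf1 gene body, and they share the locus with the neighbouring genes.

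Klf3, the repressor, and Klf6 each had a site of the same kind. At Klf3 a site with summits at 4732 to 4784 inside the gene body, chr5:64808153-64808405, was under F-Seq peaks in all 6 libraries of C2, C10 and C18, at percentiles 33.1 to 83.0, and under no peak of either caller in C13. HOMER listed it in 4 of the 6. The merged regions that hold this site and the Klf3 start also overlap another coding gene, Gm38457. The neighbouring Klf3 site at 2797 to 2849 had peaks of both callers in all 8 libraries. At Klf6 a site with summits at 9031 to 9291, just beyond the end of the gene, chr13:5870420-5870880, was under F-Seq peaks in the same 6 libraries, at percentiles 26.0 to 83.3, and under none in C13. HOMER listed this site in C18 R1 alone. With that of Klf1, 3 of 130 summit sites in the 7 loci (2.31%) had this pattern, against 0.863% of 255581 sites in all, and 3 sites are too few to set one share against the other. Sites were built after the merged regions had been seen, from F-Seq summits at most 200 bases apart.

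Klf6 is a widely expressed member that responds early to growth and injury signals. Its start site had the strongest peaks of the 7 loci, at percentiles 99.6 to 99.9 in the 8 libraries, with summits at -241 to -169. Over the gene body with 2 kb, Klf6 had 8.77 and 7.71 kb in C2, 4.88 and 4.65 kb in C13, 10.5 and 9.43 kb in C18 and 6.38 and 5.36 kb in C10. These bases, and those of the whole locus, include the Klf6 site without a C13 peak, so they are not separate evidence. C13 was lowest with no overlap. The difference from the mean of C10 and C18 was -0.66 (SE 0.119, adjusted p = 0.0279, limma), -0.40 (adjusted p = 0.0907) without scaling and -0.29 (adjusted p = 0.285) without the C18 libraries. C18 was also the highest population here, and C10 was lower than C18 by -0.75 (SE 0.137, adjusted p = 0.0193, limma), or by -0.30 (adjusted p = 0.183) without scaling. Over the whole locus the values were 16.8 and 15.0 kb in C2, 11.7 and 11.2 kb in C13, 15.1 and 14.1 kb in C18 and 13.8 and 14.4 kb in C10. Here the difference of -0.32 (SE 0.0954, 95% interval -0.54 to -0.10) missed the threshold (adjusted p = 0.0813).

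Over its whole locus Klf3 had 9.41 and 15.0 kb in C2, 9.46 and 9.71 kb in C13, 14.5 and 13.8 kb in C18 and 8.36 and 10.1 kb in C10. The C2 libraries spanned nearly the whole range, and C13 overlapped C10. Over the gene body with 2 kb, Klf3 differed in C13 from the mean of C10 and C18 by -0.36 (SE 0.188, adjusted p = 0.282, limma). That stretch also holds the Klf3 site without a C13 peak. The whole-locus difference between C10 and C18 was -0.61 (SE 0.212, 95% interval -1.11 to -0.12), which did not pass the limma test (adjusted p = 0.0676). Of its 20 summit sites, 6 were under F-Seq peaks in all 8 libraries, as were 36 of the 130 of all members and 19.1% of all sites. The Klf3 start had peaks in all 8, with summits at -540 to -391, at percentiles 75.7 to 94.7. The pair of sites at -2630 and -2379 was under F-Seq peaks in both C2 libraries alone, as were 0.669% of all sites, and had no HOMER peak.

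Klf2, which restrains lymphocyte activation, had the highest adjusted p of the members in the joint limma test of any difference (0.835). Its locus had 4.36 and 6.13 kb in C2, 5.30 and 5.06 kb in C13, 6.02 and 5.49 kb in C18 and 5.43 and 4.80 kb in C10. The C2 libraries enclosed all other values. The start peak, whose summits lay at -72 to -35 within the sequence shown above, ranked at percentiles 96.6 to 98.2. A site at 3482 to 3658 from the start also had peaks of both callers in all 8 libraries. A site at 10927 to 11088 was under F-Seq peaks in both C18 libraries alone, as were 1.40% of all sites, and had no HOMER peak.

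Klf4, a factor of monocyte differentiation and pluripotency, was the member whose mean was lowest in C18 by the F-Seq lists. Its locus had 6.04 and 6.43 kb in C2, 5.80 and 6.06 kb in C13, 5.75 and 4.62 kb in C18 and 6.13 and 5.90 kb in C10. Both C18 values lay below all others. The difference of C10 from C18 was 0.21 (SE 0.154, adjusted p = 0.326, limma). Without scaling it was 0.66 (adjusted p = 0.0203), but the scaling factors of the C18 libraries were the highest, at 1.43 and 1.13. By the scaled HOMER lists the Klf4 mean was instead highest in C18, at 2.42 kb. There C10 was lower than C18 by -0.49 (SE 0.163, adjusted p = 0.0363, limma), where 34.0% of loci were lower. By the unscaled HOMER lists C10 was higher, where 75.1% of loci were. A site at 5840 to 5965 from the start, just beyond the end of the gene, was under F-Seq peaks in C2, C10 and C13 and had no peak of either caller in C18, as had 3.18% of all sites and 2 of 130 in the 7 loci. A site at -13768 to -13751, chr4:55546126-55546343, had peaks of both callers in both C13 libraries and none elsewhere.

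Klf10, a factor induced by TGF-beta signalling, was the only member whose mean over the whole locus was highest in C13 by the F-Seq lists. It had 9.93 and 7.80 kb in C2, 8.81 and 9.53 kb in C13, 8.76 and 8.59 kb in C18 and 7.20 and 7.05 kb in C10. C13 overlapped C2, and the difference from the mean of C10 and C18 was 0.22 (SE 0.125, adjusted p = 0.301, limma). Over the gene body with 2 kb the order was another. There C13 was lowest with 4.47 and 4.37 kb, just below C10 with 4.62 and 4.61 kb. The difference from the mean of C10 and C18 was then -0.25 (SE 0.160, adjusted p = 0.370, limma). Over the whole locus by the scaled HOMER lists, the mean was highest in C18, at 4.59 kb, against 1.79 kb in C13. The C13 difference by these lists was -0.63 (SE 0.116, adjusted p = 0.0102, limma), where 17.4% of loci were lower. Without the C18 libraries the HOMER difference was 0.013 (SE 0.143). A site left of the gene, chr15:38278406-38278606, had peaks of both callers in both C13 libraries and none elsewhere, and with the Klf4 site made 2 of 130 (1.54%), against 2.06% of all sites. The gene table used here gave no strand for Klf10, so no start was assigned. The peaks at the right-hand end of the gene, chr15:38300699-38300956, ranked at percentiles 94.9 to 98.1 in all 8 libraries.

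Klf13, a widely expressed member that acts in lymphocytes, had the longest locus, 92.6 kb, and 27 of the 87 regions. Its values were 23.1 and 25.4 kb in C2, 18.3 and 20.8 kb in C13, 28.7 and 24.0 kb in C18 and 22.9 and 21.7 kb in C10. C13 was lowest with no overlap. The difference from the mean of C10 and C18 was -0.30 (SE 0.111, 95% interval -0.56 to -0.05) and missed the threshold (adjusted p = 0.125, limma). Over the gene body with 2 kb, C13 had 17.5 and 19.6 kb and overlapped C10 with 19.2 and 18.7 kb. The difference there was -0.16 (SE 0.137, adjusted p = 0.507, limma). The sites at 62068 to 62121, -13508 to -13409, -13789, and -17474 to -17404 were under F-Seq peaks in 5 of the 6 other libraries and had no peak of either caller in C13. The sites at -13508 to -13409 and -13789 lie in 1 merged region. The share of all sites with this looser pattern was not counted. In reverse, the sites at 37297 to 37321 and 37047 were under F-Seq peaks in both C13 libraries and 1 C18 library alone. Those 2 sites also share 1 merged region and had no HOMER peak. The share of all sites with the reverse pattern was not counted either. These sites therefore do not show that Klf13 differs from other loci. The start peaks ranked at percentiles 98.2 to 99.7. As a share of the locus length, Klf6 was the most covered member on average, at 28.6%, followed by Klf13 at 25.0%, and Klf2 was the least, at 12.5%.

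**Figure D2:**
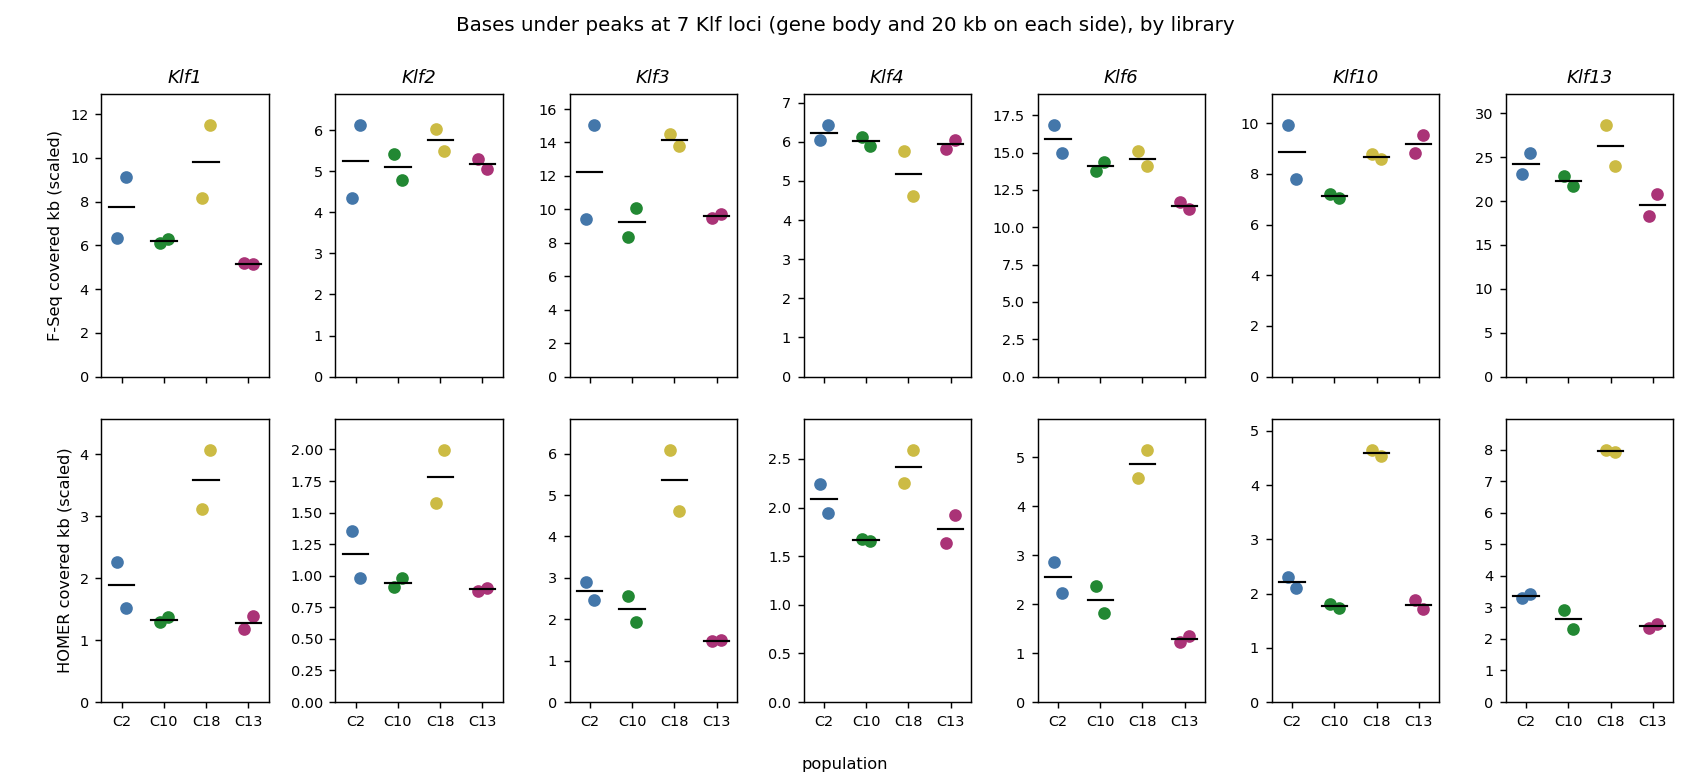
Kb under peaks at each locus (vertical axes, from 0) in the 4 populations, from F-Seq lists in the upper row and HOMER lists in the lower row, scaled to equal totals. Points are libraries and lines are means of 2; the C13 points are the lowest for Klf1, Klf6 and Klf13 in the upper row, and the C18 points the highest for all 7 loci in the lower row.

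Across the whole loci, no member passed the limma test over 18937 loci in any of the 3 comparisons by the F-Seq lists. For C2 compared with C10 and C18 averaged, 0 of 7 were called and 0.00% of all loci, although 3353 loci had an unadjusted p under 0.05. The members' differences lay between -0.06 for Klf2 and 0.16 for Klf10. For C13 compared with C10 and C18 averaged, 0 of 7 were called, where 8.27% of all loci were, 733 higher (3.87%) and 833 lower (4.40%). Without scaling that split was 1680 higher (8.87%) and 245 lower (1.29%). The members' median was -0.25, and that of all loci -0.06, where Klf1, Klf6 and Klf13 had unadjusted p-values of 0.0181, 0.011 and 0.0264. For C10 against C18, 0 of 7 were called, where 27.2% of all loci were, 1729 higher (9.13%) and 3422 lower (18.1%), or 4101 (21.7%) and 538 (2.84%) without scaling. The members' median was -0.23 against -0.14 for all loci. In the joint test of any difference 0 of 7 were called, where 28.0% of loci were, with the lowest adjusted p-values at Klf6 (0.0577) and Klf1 (0.063).

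The HOMER lists gave calls that depended on the C18 libraries and on scaling. Scaled, 5 of 7 members (Klf1, Klf3, Klf6, Klf10 and Klf13) were lower in C13 than in the mean of C10 and C18, where 17.4% of 19101 loci were lower, and 7 of 7 were lower in C10 than in C18, where 34.0% were. The HOMER scaling factors of the C18 libraries were 2.62 and 2.31, against 0.729 to 1.13 in the others. Without the C18 libraries 0 of 7 members were called in C13, where 0.0786% of loci were lower. Without scaling, 1 of 7 was called in C13, Klf4, which was higher, where 50.3% of loci were higher, and 4 of 7 (Klf2, Klf3, Klf4 and Klf6) were higher in C10 than in C18, where 75.1% were. The housekeeping loci had 6 of 10 lower in C10 than in C18 by the scaled HOMER lists. For C2, 0 of 7 members were called by HOMER, where 0.262% of loci were, with 3260 loci at an unadjusted p under 0.05.

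**Figure D3:**
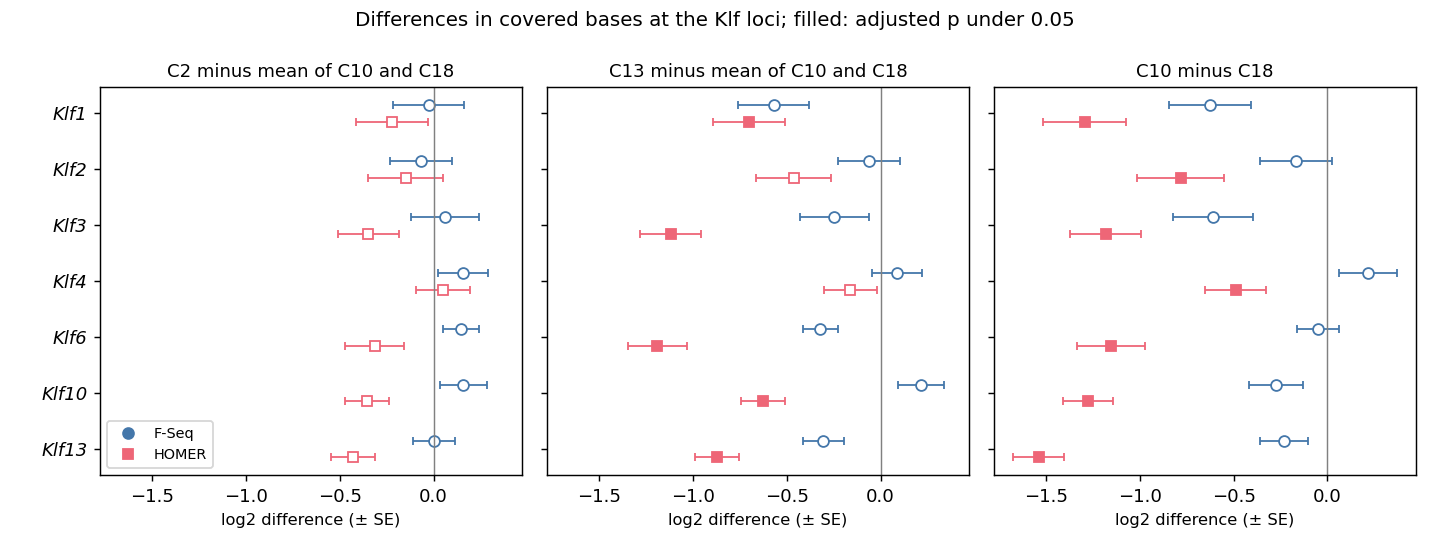
Difference on the log2(kb scale with 200 bases added) with its SE for each member in 3 comparisons, F-Seq as circles and HOMER as squares. Filled marks passed the adjusted p threshold; no F-Seq mark is filled, and 5 HOMER marks are in the middle panel and 7 in the right one.

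Of the 87 merged regions, 26 (29.9%) had F-Seq peaks in all 8 libraries, against 19.1% of all regions. A further 28 had them in 1 library, against 40.2% of all regions, and 33 in 2 to 7. Each library had peaks in 42 to 53 of the 87 (48.3% to 60.9%), against 43.9% to 46.2% of all regions. The set of all regions also holds those outside gene loci. Klf1 had 4 of 9 regions in all 8 libraries, Klf3 had 5 of 14, Klf6 had 4 of 10 and Klf13 had 7 of 27. Klf4, Klf2 and Klf10 each had 2, of 7, 9 and 11. Regions called in both libraries of 1 population alone numbered 2 for C13, 1 for C2, 1 for C18 and 0 for C10, where 4.70%, 0.512%, 1.41% and 0.987% of all regions had these patterns.

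**Figure D4:**
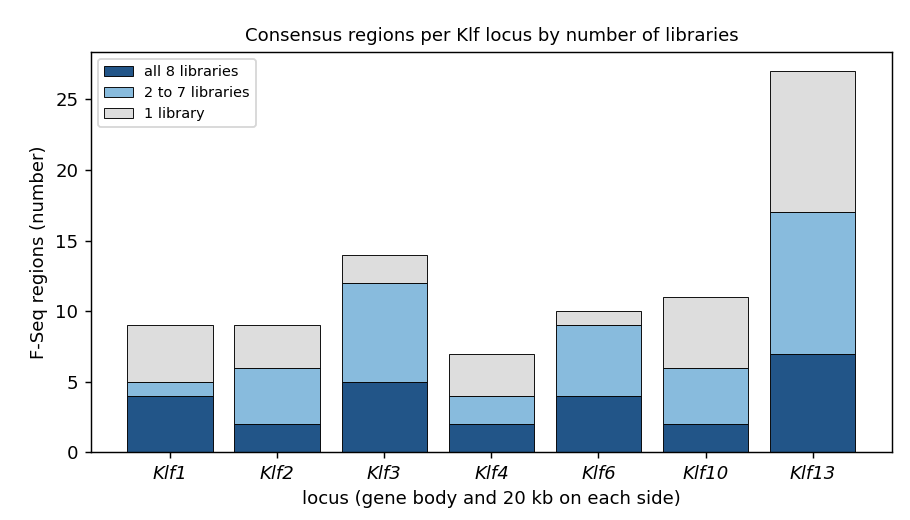
Number of merged F-Seq regions in each locus (vertical axis), divided by the number of libraries with a peak. Klf13 has the most, 27, of which 7 were in all 8 libraries, and Klf4 the fewest, 7, of which 2 were.

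The members did not vary as 1 group over the 8 libraries. As a description, Pearson's r between pairs of members ran from -0.57 for Klf1 with Klf4 to 0.84 for Klf1 with Klf3, with all values sharing the scaling of the same libraries. The locus most like Klf1 was Oas1e (r = 0.998 over 8 libraries, of 17328 loci covered in all of them), followed by Vwa1 (0.989). The locus most like Klf3 was Igfbp4 (0.966), like Klf2 Lypd2 (0.938), like Klf4 Lpar6 (0.992), like Klf6 Zfp24 (0.973), like Klf10 Parp12 (0.976) and like Klf13 Togaram1 (0.982). With 8 points and this many loci, these values are descriptions only.

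By the scaled F-Seq lists, the loci of Klf1 targets and partners in red cells that passed the test in C13 were mostly lower. Of 34 loci tested by the F-Seq lists, 11 were lower and 1 was higher in C13 than in the mean of C10 and C18, where 4.40% and 3.87% of all loci were. The list's median was -0.32. Hba-a2, an alpha globin gene whose locus can share peaks with its near-identical copy, reached 7.61 ± 0.861 kb in C18, 3.55 ± 0.679 kb in C10 and just 2.05 ± 0.0511 kb in C13 (mean ± SD, n = 2), a difference of -1.26 (SE 0.162, adjusted p = 0.0138, limma). Kel, a red cell blood group gene, fell from 3.89 ± 1.98 kb in C18 and 2.24 ± 0.125 kb in C10 to 0.525 ± 0.0998 kb in C13, a difference of -2.08 (SE 0.334, adjusted p = 0.0182, limma). Zfpm1, the GATA1 cofactor FOG1, differed by -0.97 (SE 0.152, adjusted p = 0.0171, limma). Bcam, a laminin receptor, was the 1 higher locus, by 0.67 (SE 0.118, adjusted p = 0.022, limma). Without the C18 libraries 3 of 34 were lower and 1 higher, where 2.74% and 2.28% of loci were. Without scaling 3 were again lower and 1 higher, where 1.29% and 8.87% of loci were. For C10 against C18, 13 of 34 were lower and 0 higher, where 18.1% and 9.13% were, and E2f2, a cell cycle factor, differed by -1.32 (SE 0.155, adjusted p = 0.00549, limma). Without scaling 3 were lower and 2 higher, where 2.84% and 21.7% of loci were. By the scaled HOMER lists 13 of 34 were lower and 0 higher in C13, where 17.4% of loci were lower. Unscaled, 3 were lower and 8 higher, where 50.3% of loci were higher. By the HOMER lists without the C18 libraries 1 was lower and 0 higher, where 0.0786% of loci were lower. For C10 against C18 the scaled HOMER lists gave 25 lower and 1 higher, where 34.0% of loci were lower. Unscaled, 0 were lower and 16 higher, where 75.1% of loci were higher.

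Among 19 other members of the KLF and SP family, the C13 counts by the F-Seq lists were close to those of all loci. Of all loci, 3.87% were higher and 4.40% lower. Of the 19, 1 was higher in C13, Sp5 (1.10, SE 0.256, adjusted p = 0.0434, limma), and 1 was lower, Sp2 (-0.64, SE 0.156, adjusted p = 0.0485, limma). Without the C18 libraries 0 of 18 were higher and 1 lower, and without scaling 2 of 19 were higher and 0 lower. Of all loci, 2.28% were higher and 2.74% lower without the C18 libraries, and 8.87% and 1.29% without scaling. The scaled HOMER lists gave 3 of 19 higher and 6 lower in C13, where 1919 of 19101 loci were higher and 17.4% lower. The next counts are again from the F-Seq lists. For C10 against C18, 3 were higher and 5 lower, where 9.13% and 18.1% of all loci were, with Klf16 at -1.03 (SE 0.145, adjusted p = 0.00682, limma). Without scaling 5 were higher and 0 lower, where 21.7% and 2.84% of loci were. Of 9 targets of Klf2 and Klf4, 0 were higher in C13 and 2 lower by the scaled HOMER lists, where 17.4% of loci were lower. Unscaled F-Seq lists gave 3 higher, where 8.87% of loci were. By the scaled F-Seq lists 1 was higher and 0 lower, where 3.87% and 4.40% of all loci were. The 1 higher locus was Ccr7, a homing receptor, with 3.96 ± 0.376 kb in C18 and 5.30 ± 0.0718 kb in C10 but 11.3 ± 0.867 kb in C13 (mean ± SD, n = 2), a difference of 1.26 (SE 0.139, adjusted p = 0.00983, limma).

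Marker loci of several cell types moved with the same comparison. In C13 compared with C10 and C18 averaged, 6 of 10 erythroid markers and 3 of 10 megakaryocyte markers were lower and 0 of either were higher, where 4.40% of all loci were lower and 3.87% higher. Without scaling 3 and 1 were lower, and without the C18 libraries 4 and 2 were. Of all loci, 1.29% were lower and 8.87% higher without scaling, and 2.74% and 2.28% without the C18 libraries. The erythroid list shares 7 of its 10 genes with the Klf1 list. Erythroid markers summed to 53.5 and 54.0 kb in C13 and to 58.6 to 86.8 kb in the other 6 libraries. Megakaryocyte markers summed to 64.2 and 68.1 kb in C13 and to 87.5 to 105 kb in the other 6 libraries. Of 8 lymphoid markers 3 were higher in C13, with sums of 69.9 and 71.1 kb against 38.6 to 52.4 kb elsewhere, and without the C18 libraries 1 was. Higher too were 1 of 6 macrophage markers (4 without scaling), 3 of 6 stroma and endothelium markers (2 without the C18 libraries) and 1 of 10 granulocyte and monocyte markers, Irf8 (2 without the C18 libraries). Of 5 mast cell and basophil markers, 2 were lower in C13, Ms4a2 and Cpa3, and 0 without scaling. These markers summed to 8.34 and 8.47 kb in C13 and to 12.1 to 24.7 kb elsewhere. Of 8 stem and multipotent cell markers 0 were called (1 higher without scaling). Housekeeping loci had 0 of 10 called. All these counts and sums are from the F-Seq lists. By the scaled HOMER lists 4 erythroid, 3 megakaryocyte and 3 housekeeping loci were lower in C13 and 0 higher, where 17.4% of loci were lower. Higher there, with 0 lower, were 5 of 6 macrophage, 3 of 8 lymphoid and 1 of 6 stroma and endothelium markers. Of all loci, 1919 of 19101 were higher. The granulocyte and monocyte, the stem and multipotent, and the mast cell and basophil lists each had 1 higher and 1 lower. Unscaled, 3 erythroid and 3 megakaryocyte loci were higher and 1 and 0 lower, where 50.3% of loci were higher. By the HOMER lists without the C18 libraries 0 markers of any list were called, where 0.178% of loci were. No marker of these lists lacked peaks in all libraries. In sorted bulk cells, a smaller share of cells with an open site and less opening in each cell cannot be told apart, and the part of cell composition in the Klf1 and Klf6 values was not tested.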

How the data were processed

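ATAC-seq peak lists of 8 libraries were used, 2 for each of 4 populations. Per the submitters' processing notes, the build was mm10 and the tools named were Bowtie 1.0.0 and HOMER 1.0; the F-Seq version was not given in the sources used here. In the F-Seq lists the authors deposited, a signal is given for each peak, and their HOMER lists give score columns without labels. Peaks were called in each library separately. The signal served to rank the peaks of 1 list, and the scores were not used.

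Bases under peaks were summed for each protein-coding locus (RefSeq gene table, GRCm38.p6), scaled to the mean total length under peaks, and fitted as log2(value + 200 bases) with limma 3.58.1 in R 4.3.3, with 4 group means, a trend and Benjamini-Hochberg adjustment over loci covered in at least 2 libraries (threshold 0.05). The fit was tested on simulated data. Summit sites extended 100 bases beyond the outer summits, and 1 base of overlap counted as called. The members and gene lists were chosen with earlier results of these data known. All members were named; of each list at most the 4 loci of smallest p (1 such locus is not reported here), and for likeness the 3 loci of highest correlation that do not overlap the member. Alternatives covered the caller, scaling, pseudocount, filter, flank, peak rank, trend, C18 libraries, replicate block and single libraries; 4 combinations with the HOMER lists or the 2 kb flank, and the summit sites, were added after seeing the data.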

Additional observations from a re-analysis of the deposited data

How the results depend on the processing

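The depth of the libraries is unknown, the F-Seq lists end at a fixed number of peaks, and no single site was tested. Of the 7 Klf loci, the number called for C2 stayed 0 under every alternative that left no population with 1 library. Of all loci, at most 13.1% were called there, without the C18 libraries. Under all 24 alternatives, 132 of the members' 168 differences for C2 kept their sign. For C13 the number called was 0, where 8.27% of all loci were. It became 5 with the HOMER lists (27.4% of all loci), 3 with peaks of both callers (20.4%) and 2 with the 2 kb flank (6.86%). It was 1 with the 10 kb flank (Klf6, 6.85%), the 50000 strongest peaks (Klf13, 12.5%) and unscaled HOMER lists (Klf4, higher, 50.8%). Leaving out each library in turn left 1 population with 1 library, so the calls of these fits are not given. In these fits the C13 difference ranged from -0.69 to -0.45 for Klf1 and from -0.35 to -0.29 for Klf6. For Klf13 it ranged from -0.40 to -0.21. For C10 against C18 the number called was 0, where 27.2% of all loci were. It became 7 with the HOMER lists (52.2% of all loci), 5 with peaks of both callers (45.8%) and 4 with unscaled HOMER lists (75.1%). It became 2 with the 2 kb flank (16.8%). It was 1 with no scaling (24.5%), the 10 kb flank (22.1%), the 50000 strongest peaks (22.9%) or the unscaled 2 kb flank (18.7%). In the joint test the number called was 0, where 5299 of 18937 loci were called. It became 6 with the HOMER lists (9185 of 19101 loci), 5 with peaks of both callers (7847 of 18671) and 3 with unscaled HOMER lists (13611 of 19101). It became 2 with the 2 kb flank (2954 of 17526) and 2 with that flank without the C18 libraries (2034 of 17241). It became 1 with that flank unscaled (3174 of 17526), no scaling (4758 of 18937) or the 10 kb flank (4105 of 18458). The 50000 strongest peaks (4236 of 17851) and no C18 libraries (3940 of 18707) also gave 1. The cause of these changes was not tested.

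Replicate numbers are shared by the populations, but same-numbered libraries did not deviate together in every pair (correlations -0.03 to 0.14), so the numbers were not taken as pairs. With the replicate block the members called were 0 for C2, 0 for C13 and 0 for C10 against C18. Of all loci, 0.00%, 6.23% and 25.5% were called in these comparisons. In its joint test 1 member was called (Klf1), as were 4579 of 18937 loci. The loci called for C13 went from 733 higher and 833 lower to 563 and 617.

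The regions under F-Seq peaks in all 8 libraries, 26, were 21 with the HOMER lists, 22 with the 50000 strongest peaks and 26 with an overlap of 50 bases. The members' C13 and C10 against C18 differences changed sign in 36 of 315 values, and Klf1 and Klf6 kept theirs in C13 under all alternatives but unscaled HOMER lists for Klf1. The changed values for C13 were, with unscaled HOMER lists, Klf1 0.10 and Klf2 0.28; with no scaling, Klf2 0.19 and Klf3 0.016; with the 2 kb flank, Klf2 0.21 and Klf10 -0.25, and unscaled, Klf2 0.46 and Klf13 0.10, and without C18, Klf2 0.31, Klf4 -0.17 and Klf10 -0.060; with the 50000 strongest peaks, Klf2 0.55, Klf4 -0.14 and Klf10 -0.10; without C18, Klf2 0.020, Klf3 0.060 and Klf4 -0.020; with the HOMER lists, Klf4 -0.16 and Klf10 -0.63; and with peaks of both callers, Klf4 -0.16 and Klf10 -0.13. Those for C10 against C18 were, with unscaled HOMER lists, Klf1 0.22, Klf2 0.63, Klf3 0.39, Klf6 0.41, Klf10 0.27 and Klf13 0.056; with no scaling, Klf2 0.28, Klf6 0.41, Klf10 0.17 and Klf13 0.23; with the unscaled 2 kb flank, Klf2 0.22, Klf10 0.057 and Klf13 0.20; and for Klf4, -0.49 with the HOMER lists and -0.24 with peaks of both callers. No scaling moved the median of all loci from -0.06 to 0.20 for C13 and from -0.14 to 0.29 for C10 against C18.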
